A study of Macaca mulatta with 13 samples.

Results

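Lymphocytes with RNA of KIR2DL4 were examined among CD45+ cells of the rhesus macaque (Macaca mulatta) colon. A cell that the authors kept was a member if it held at least 1 unique molecular identifier (UMI, the tag of 1 captured RNA molecule) of KIR2DL4 (ENSMMUG00000001519), fewer than 2 UMIs of the B cell genes MS4A1 and CD79A together, and less than 1% of its UMIs from JCHAIN, a gene of antibody-secreting cells. This gave 268 members of 20567 kept cells in 12 libraries. The 234 members with at least 3 UMIs of the CD3 chains CD3D, CD3E and CD3G are called KIR2DL4 T cells, and the 34 members with fewer are called KIR2DL4 CD3-low cells. They were set against 11000 other T cells, which had at least 3 CD3 UMIs, no KIR2DL4 UMI and passed the same limits on B cell and plasma cell genes. The members were thus selected on their own UMIs of KIR2DL4 and of the genes of these limits, so these genes are no result.

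KIR2DL4 is a member of the killer cell immunoglobulin-like receptors, a family of surface receptors that natural killer (NK) cells and some T cells use to sense MHC class I molecules on other cells. In humans KIR2DL4 is known from NK cells and is linked to the non-classical MHC molecule HLA-G, and its signals pass through an Fc receptor adaptor as well as an inhibitory tail. NK cells and cytotoxic T cells share killing proteins such as granzymes, perforin and granulysin, and they differ in that T cells carry the T cell receptor with its CD3 chains. The gut holds both kinds, together with T cells that bear NK receptors.

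Transplanted macaques with graft-versus-host disease (GVHD), an attack of the donor's T cells on the recipient, were studied beside untransplanted controls. By the labels there are 13 libraries: cells of the host alone in 4, cells of the donor alone in 2, both together in 3, and colon of healthy controls in 4. Cells were thawed, and live cells with the leukocyte protein CD45 were sorted if they lacked the CD45 antibody called IVas in the protocols, with host and donor cells in part separated by the MHC class I molecule MAMU-A001. The labels give no genotype, age, drug or time for any group. The sources used here do not tie the barcode numbers to the labels, so libraries are given by number, and groups that follow from the order of the labels are an inference with no test. The kept cells of a library held 109371 to 18773729 UMIs in all, and library 4 was left out because 5323 of its barcodes are also barcodes of library 6. Of the members' barcodes, 1 was also a kept barcode of another counted library.

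KIR2DL4 cells were a small fraction of the colon leukocytes, at 1.30% of kept cells (exact 95% binomial interval 1.15 to 1.47). Of all T cells 2.08% (1.83 to 2.36) had a KIR2DL4 UMI, while 0.106% (0.0288 to 0.271) of 3780 B cells without 3 CD3 UMIs did, at median depths of 3102 and 3337 UMIs per cell. These intervals cover counting error only. Cells thinned to 1500 UMIs each gave 97 of 8963 T cells (1.08%) and 2 of 3780 B cells (0.0529%). B cells should lack this receptor, so the B cell share serves as a measure of the background from free RNA. Most of these B cells lay in libraries 3, 8, 9 and 11 (1450, 692, 945 and 566 cells). The 4 B cells with KIR2DL4 lay 1 each in libraries 1, 2, 3 and 11, so the pooled share does not describe a single library. Libraries 1 and 5, which had the highest T cell shares, held 5 and 9 B cells, 1 and 0 of them with KIR2DL4, so their background was not measured. With any number of CD3 and JCHAIN UMIs allowed, cells with 2 or more B cell UMIs had KIR2DL4 in 26 of 5865 cases. It was 5 of 81 in library 1, 6 of 243 in library 2 and 5 of 193 in library 5. Whether these cells also hold RNA of a T cell was not tested.

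The same order held in each library with at least 100 B cells. In library 3, 5 of 386 T cells and 1 of 1450 B cells had a KIR2DL4 UMI, and in library 8 it was 10 of 593 T cells and 0 of 692 B cells. In library 9 there were 9 of 1296 T cells and 0 of 945 B cells, and in library 11 there were 27 of 1596 T cells and 1 of 566 B cells. Of 1241 plasma cells 7 had a KIR2DL4 UMI, 5 of them in library 11, where plasma cells reached 4.55%. That share was above the 1.69% of T cells in the same library, and counts without library 11 are given beside the tests.

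The share of T cells with KIR2DL4 differed between libraries beyond counting error. It was 3.55% in library 1, 1.66% in library 2, 1.30% in library 3 and 5.78% in library 5. It was 1.69% in library 8, 0.694% in library 9, 1.72% in library 10, 1.69% in library 11, 1.67% in library 12 and 2.64% in library 13. Library 5 was highest (3.98 to 8.06) and library 9 lowest (0.318 to 1.31), and between them libraries 2, 3, 8, 10, 11 and 12 lay from 1.30% to 1.72% with intervals that overlap. Libraries 6 and 7 had 0 of 34 and 0 of 3 T cells with KIR2DL4, which by 3 counts over the number of T cells allows a share of up to 8.82% in library 6 (10.3% by the exact interval) and sets no useful limit in library 7. In cells thinned to 1500 UMIs the shares ran from 0.261% in library 8 and 0.305% in library 9 to 1.61% in library 1 and 4.43% in library 5, so libraries 5 and 1 stayed highest at equal depth.

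By the inferred order of labels, libraries 1, 6 and 7 would be host fractions, 2 and 5 donor fractions, 10, 12 and 13 combined, and 3, 8, 9 and 11 healthy controls. The T cell shares would then be 3.55% in the host fraction with members, 1.66% and 5.78% in donor fractions, 1.72%, 1.67% and 2.64% in combined samples, and 1.30%, 1.69%, 0.694% and 1.69% in healthy controls. The 2 highest shares would lie in GVHD libraries, yet the lowest share of a GVHD library with members, 1.66%, was under the highest healthy one, and libraries 6 and 7 had no member. CD3-low members would be 6 of 2082 kept cells (0.288%, 0.106 to 0.626) in host fractions, 5 of 3358 (0.149%, 0.0484 to 0.347) in donor fractions, 5 of 5002 (0.10%, 0.0325 to 0.233) in combined samples and 18 of 10125 (0.178%, 0.105 to 0.281) in healthy controls, with intervals that overlap.

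**Figure D1:**
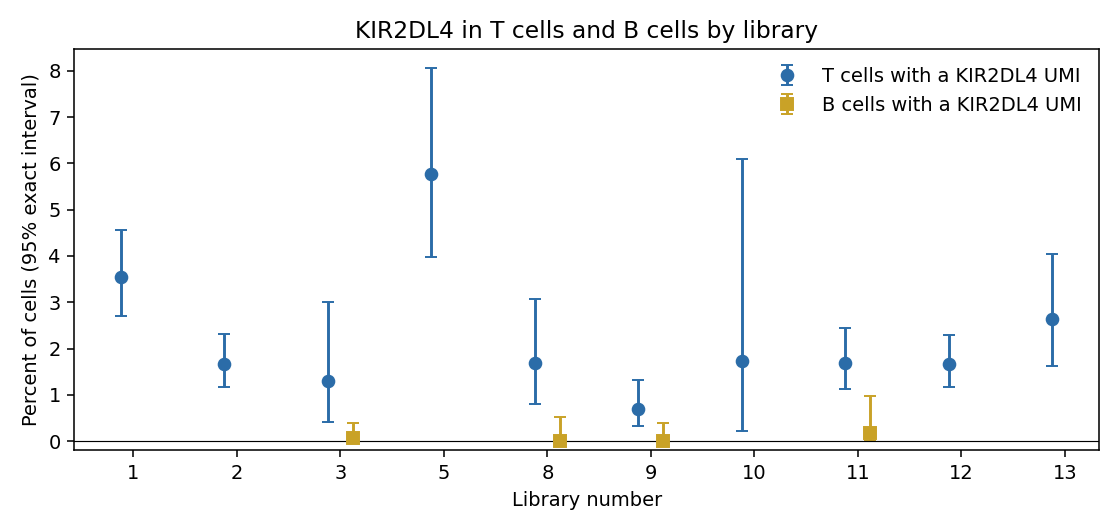
Percent of T cells (circles) and of B cells (squares) with at least 1 KIR2DL4 UMI in each library with at least 100 T cells, with exact 95% binomial intervals, and B cells shown where a library had at least 100. T cells lie between 0.694% in library 9 and 5.78% in library 5, above the B cells of the same library in all 4 libraries that show both. The intervals overlap in library 9.

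Most members carried a single KIR2DL4 UMI. Among KIR2DL4 CD3-low cells 27 had 1 UMI, 5 had 2 and 2 had more, with 4 as the highest count. Among KIR2DL4 T cells 165 had 1 UMI, 46 had 2 and 23 had more, with 15 as the highest. Library 5 stood out here, with 2 or more KIR2DL4 UMIs in 22 of its 32 members, while library 9 had 1 such cell of 16 and library 12 had 7 of 39. The median depth was 3195.5 UMIs in CD3-low members, 3921.5 in KIR2DL4 T cells and 3093.5 in other T cells, so KIR2DL4 T cells were deeper than the cells they were set against.

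At the edges of the rule, 6 CD3-low members had 2 CD3 UMIs and 6 KIR2DL4 T cells had 3, while 22 members had none and 146 had 10 or more. A single MS4A1 or CD79A UMI was found in 23 members, and 10 cells with 2 such UMIs were left out. No member had 0.5 to 1% of its UMIs from JCHAIN, and 2 cells with 1 to 2% were left out. In all, 308 kept cells had KIR2DL4. Cells with 1 B cell UMI made up 20.6% of CD3-low members, 6.84% of KIR2DL4 T cells and 6.01% of other T cells, and 57.1% of the CD3-low members of library 9. The part of this B cell RNA in the results of the CD3-low cells was not tested.

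The label given to these cells rests on 3 markers, KIR2DL4 itself, KLRD1 and GNLY. Their values describe the cells and are no independent check of the label. KLRD1, which encodes the CD94 chain of NK lectin-like receptors, had a UMI in 64.7% of CD3-low members and 65.0% of KIR2DL4 T cells, against 17.0% of other T cells and 0.370% of B cells. GNLY, which encodes the granule protein granulysin, had a UMI in 88.2% of CD3-low members and 92.7% of KIR2DL4 T cells, against 48.3% of other T cells and 0.926% of B cells. After thinning to 1500 UMIs, KLRD1 was found in 44.1%, 34.2% and 10.7% of these classes and GNLY in 88.2%, 87.6% and 41.5%. Both markers were thus more frequent in the members at equal depth.

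The classes were then read against markers of the cell types that such a sort can hold. The NK markers other than the receptor itself summed to 2425 to 7266 CPM (counts per 1e6 UMIs of the same cells) in 4 libraries of CD3-low cells, 399 to 4639 CPM in 9 libraries of KIR2DL4 T cells and 264 to 2700 CPM in 11 libraries of other T cells. All 34 CD3-low members had a UMI of an NK marker, as did 221 of 234 KIR2DL4 T cells and 6557 of 11000 other T cells. KLRF1, another NK marker, had no UMI in any member and 10 in other T cells. The T cell markers outside the rule, TRAC, CD2, CD5 and CD6, summed to 263 to 856 CPM, 412 to 3679 CPM and 790 to 3609 CPM in these classes. TRAC, the constant chain of the alpha-beta T cell receptor, had a UMI in 21 of 34 CD3-low members, against 376 of 3780 B cells (9.95%, 9.01 to 10.9) at median depths of 3195.5 and 3337 UMIs. By library TRAC was found in 6 of 6 CD3-low members of library 1, 1 of 5 in library 2, 3 of 8 in library 8 and 4 of 7 in library 9, where B cells had it in 5.64% in library 8 and 4.97% in library 9. These members are not named NK cells here.

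Innate lymphoid markers summed to 749 to 1886 CPM in CD3-low cells, 24.6 to 1397 CPM in KIR2DL4 T cells and 258 to 2133 CPM in other T cells. B cell, plasma cell, mast cell, epithelial and stromal markers outside the rule had 1, 1, 2, 5 and 3 UMIs in all CD3-low members. In KIR2DL4 T cells B cell and plasma cell markers were at 23.8 and 59.9 CPM, against 22.3 and 61.6 CPM in other T cells. Myeloid markers had 57 UMIs in CD3-low members, 56 of them in 1 cell of library 8 without a CD3 UMI. In KIR2DL4 T cells they had 1098 UMIs, 1082 of them in 1 cell of library 12 with 15 CD3 UMIs and 22604 UMIs in all. Leaving out cells with 5 or more myeloid UMIs is among the alternatives given with the processing.

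CD8A was the coreceptor gene most often seen in KIR2DL4 T cells. CD8A, which forms CD8 coreceptors alone or with CD8B, was found without CD4 in 124 of 234 KIR2DL4 T cells (53.0%, 46.4 to 59.5), against 3534 of 11000 other T cells (32.1%, 31.3 to 33.0). CD4 without CD8A was found in 10 KIR2DL4 T cells (4.27%, 2.07 to 7.72), against 1926 other T cells (17.5%, 16.8 to 18.2). Neither was seen in 85 KIR2DL4 T cells and 5225 other T cells, a number that depth limits. Of the cells with CD8A, 12 of 139 KIR2DL4 T cells and 339 of 3849 other T cells also had CD8B. CD8B had a UMI in only 5.98% of all KIR2DL4 T cells and 4.34% of other T cells. A cell without a CD8B UMI therefore cannot be said to lack CD8B.

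Of the 34 CD3-low members 8 had CD8A alone, 1 had both, none had CD4 alone and 25 had neither, and none had CD8B. The 8 cells with CD8A alone lay in library 2 (4 of 5 members), library 8 (2 of 8), library 9 (1 of 7) and, with 1 cell, in libraries 11 to 13 together, while library 1 had 0 of 6. After thinning, CD8A was found in 8.82% of CD3-low members, 33.3% of KIR2DL4 T cells and 21.8% of other T cells.

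**Figure D2:**
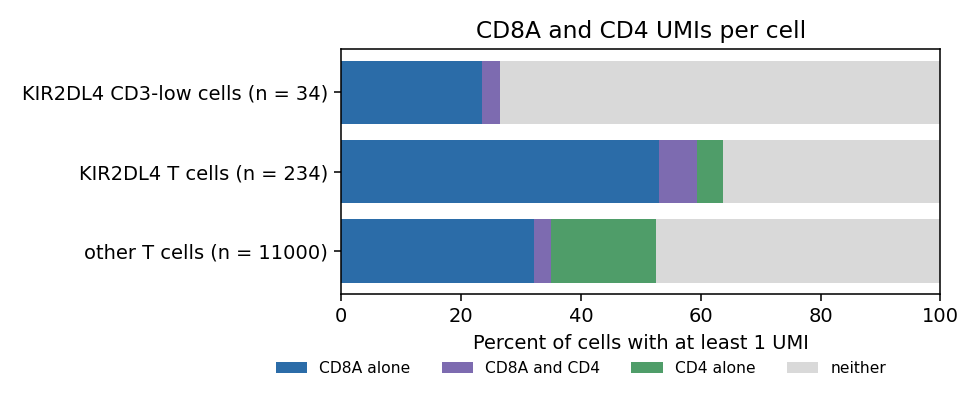
Percent of cells with at least 1 UMI of CD8A alone, of CD8A and CD4, of CD4 alone or of neither, in KIR2DL4 CD3-low cells, KIR2DL4 T cells and other T cells over all libraries. CD8A alone is the largest coloured part in KIR2DL4 T cells (124 of 234), and CD4 alone is 10 of 234 there against 1926 of 11000 in other T cells.

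KIR2DL4 T cells differed from the other T cells of the same library in NK receptors, 10 of 16 of which were higher, and in cytokines, 5 of 14 of which were lower. LAT2, an adaptor of immune receptor signalling known from B cells, mast cells and NK cells, was higher in all 7 libraries with at least 10 cells of each class. CCR7, the receptor that leads T cells to lymph nodes, was lower in all 7. UMIs were summed per library and class over 218 KIR2DL4 T cells (33970 to 281700 UMIs per library) and 9181 other T cells (1697002 to 8948667), and tested with library as a block by edgeR's quasi-likelihood test with Benjamini-Hochberg adjustment over all genes. Of 11692 genes, 140 were higher (1.2%) and 92 lower (0.787%), 1.98% in all, at an adjusted p under 0.05. The median log2 fold change of all genes was 0.03. These shares and this median serve as the background of the counts of calls and of the values here.

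Of the genes called, 25 of the higher and 52 of the lower ones went one way in every library, 2 of the higher and 5 of the lower ones did not overlap between the classes, and 6 had no UMI in KIR2DL4 T cells. The share of all tested genes that went one way or did not overlap was not counted, so these counts have no background. A robust estimate of the spread per gene called 115 higher and 85 lower, of which 114 and 80 are shared, and its adjusted p is given below for each named gene that it does not call. Scaling factors taken from all genes gave 88 higher and 379 lower calls, with the median of all genes at -0.27, and without library 11 the counts were 93 and 62. Libraries are separate samples in the labels, but nothing ties them to separate animals, so the p-values speak of these libraries only. The reported fit gives nearly all genes a common spread, so its p-values do not measure a gene's own spread between libraries. Its false calls were well above the nominal level in simulated data whose genes differ in spread.

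The NK receptor list had 10 of 16 tested members higher and none lower, with a median log2 fold change of 1.11 (1.24 with the member without UMIs at its bound). KLRD1 was at 177 CPM at the lowest, 313 at the median and 506 at the highest of 7 libraries in KIR2DL4 T cells, against 46.0, 129 and 263 CPM in other T cells. It was higher in 7 of 7 libraries, by 1.65 ± 0.16 (log2 fold change ± SE, edgeR adjusted p = 1.2e-19), although the ranges overlap. KLRD1 was 1 of the 3 genes that gave this cell type its label, so it is no independent finding.

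NCR1, which encodes the activating NK receptor NKp46, was at 0, 21.3 and 93.4 CPM (lowest, median and highest library) in KIR2DL4 T cells, against 0, 1.34 and 7.90 CPM in other T cells. It rose by 3.56 ± 0.51 (edgeR adjusted p = 3e-09) and was higher in 4 libraries and lower in 2. CD160, a receptor of cytotoxic T and NK cells, was at 5.75, 114 and 467 CPM against 5.81, 32.4 and 97.3 CPM in other T cells, a difference of 2.03 ± 0.23 (edgeR adjusted p = 5.9e-15) in 5 of 7 libraries. CRTAM (1.24 ± 0.19), the costimulatory CD7 (0.81 ± 0.12), CD96 (0.82 ± 0.20) and the activating receptor KLRK1 (0.88 ± 0.25), known as NKG2D, were each higher in 6 of 7 libraries.

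NCR3 (1.80 ± 0.52), which encodes NKp30, and TIGIT (0.55 ± 0.12) also passed the test, in 4 and 5 of 7 libraries. KLRB1, the CD161 receptor, was at 0.97 ± 0.16 in 5 of 7 libraries but not called by the robust estimate (adjusted p = 0.66). NCAM1, which encodes the NK marker CD56 of humans, had 13 UMIs in KIR2DL4 T cells and missed the threshold (edgeR adjusted p = 0.057). FCGR3, the Fc receptor CD16 of NK cells, rose by 2.54 ± 0.44 (edgeR adjusted p = 2.8e-06), yet it was higher in 3 libraries and lower in 4, so the call rests on a few libraries. Calls were lost for KLRK1 without library 1, 2, 8, 11 or 13 (edgeR adjusted p = 0.064 to 0.28), for NCR3 without library 1, 2, 5 or 11 (0.069 to 0.51) and for TIGIT without library 1 (0.072). CD96 was not called without library 1 (edgeR adjusted p = 0.061) or 11 (0.17).

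Other receptors of the same family as KIR2DL4 were seen in few UMIs. KIR3DL12 had 13 UMIs in KIR2DL4 T cells and 45 in other T cells, and rose by 3.05 ± 0.59 (edgeR adjusted p = 5.9e-05) in 5 of 7 libraries. KIR3DL17, which was chosen after its values were seen, had 50 and 124 UMIs and rose by 3.72 ± 0.39 (edgeR adjusted p = 1.3e-17), in 6 of 7 libraries. The family's genes are near-identical copies, so reads may be split or shared among them and with KIR2DL4, and these values are uncertain.

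Of the receptor adaptors and kinases, 2 of 12 were higher and 1 lower. LAT2, which was not in this list, was at 123, 190 and 365 CPM (lowest, median and highest library) in KIR2DL4 T cells, against 18.4, 25.7 and 80.0 CPM in other T cells. The classes did not overlap, and the difference was 2.80 ± 0.20 (edgeR adjusted p = 1.2e-35). TYROBP, the adaptor DAP12 of activating NK receptors, was at 55.4, 412 and 493 CPM against 22, 65.0 and 178 CPM in other T cells and rose by 2.05 ± 0.19, in 6 of 7 libraries, but was not called by the robust estimate (adjusted p = 0.14). SH2D1B, an adaptor of NK cell signalling, rose by 3.50 ± 0.68 on 9 UMIs, in 4 of 7 libraries. LAT, the adaptor of the T cell receptor, fell by 0.71 ± 0.18 on the log2 scale (edgeR adjusted p = 0.0074), in 6 of 7. Without library 12 neither SH2D1B (edgeR adjusted p = 0.069) nor LAT (0.070) was called.

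UBASH3B, a phosphatase that dampens T cell receptor signals, was at 42.4, 65.8 and 118 CPM in KIR2DL4 T cells, against 13.3, 21.0 and 30.9 CPM in other T cells. This was the other gene with higher values in KIR2DL4 T cells and no overlap between the classes, at 1.74 ± 0.26 (edgeR adjusted p = 1.7e-08). SERPINB6, an intracellular protease inhibitor, was at 55.4, 149 and 247 CPM against 13.3, 36.7 and 63.0 CPM, a difference of 1.90 ± 0.21 (edgeR adjusted p = 1.9e-15) in 7 of 7 libraries. Other genes higher in all 7 were SPINK2, also a protease inhibitor (1.29 ± 0.12, adjusted p = 0.20 with the robust estimate), and the phosphatase PPM1J (1.03 ± 0.19).

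**Figure D3:**
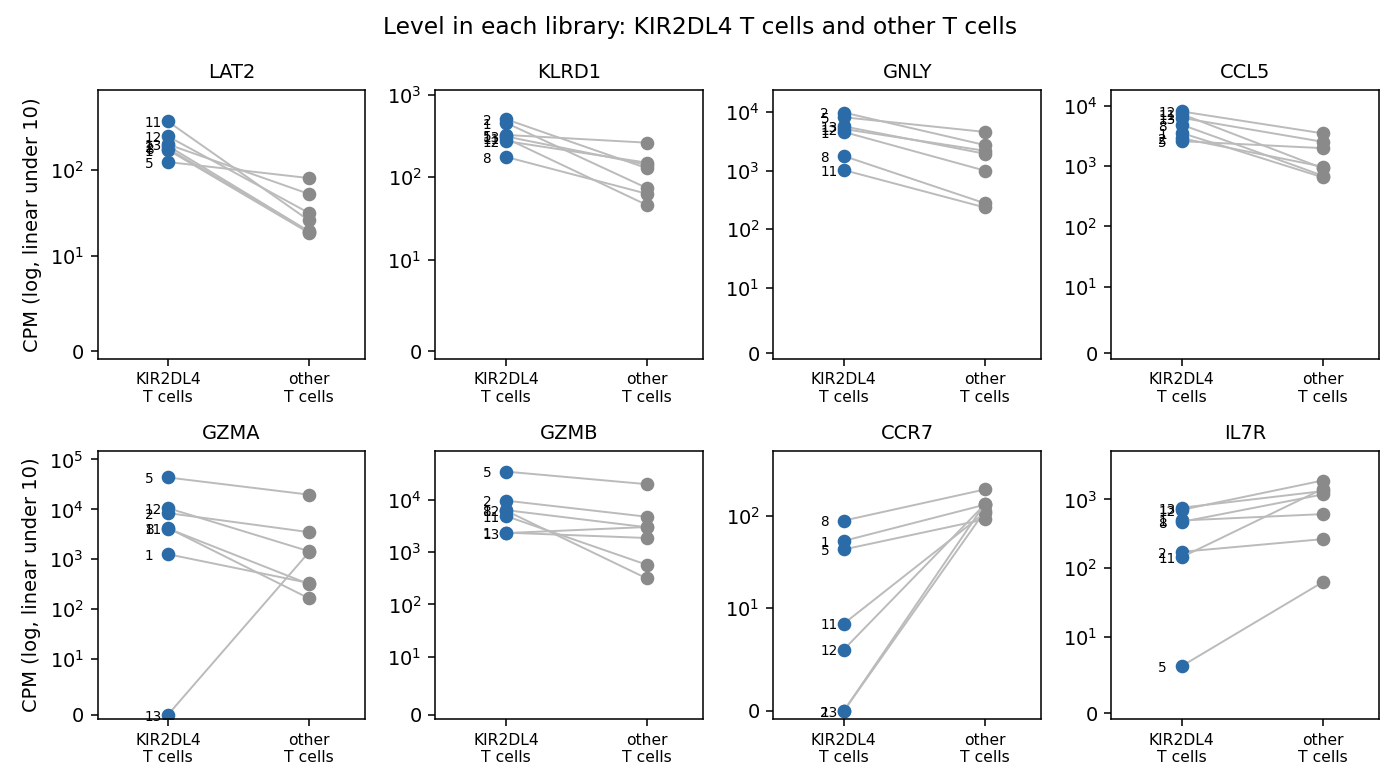
Level in CPM (log axis, linear under 10) of 8 genes in KIR2DL4 T cells (left, blue) and other T cells (right, grey) of 7 libraries, 1 line per library with its number beside the left point. LAT2, KLRD1, GNLY and CCL5 fall from left to right in every library, GZMA and GZMB in 6 of 7, and CCR7 and IL7R climb in every library.

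Of the killing genes, 6 of 14 were higher and none lower, with a list median of 0.51. GNLY was at 1019, 5086 and 9707 CPM in KIR2DL4 T cells, against 236, 1932 and 4541 CPM in other T cells, and rose by 1.78 ± 0.08 in 7 of 7 libraries (edgeR adjusted p = 1.1e-73, 0.018 with the robust estimate). GNLY, too, gave the cells their label and is no independent finding. The granule gene NKG7 rose by 0.70 ± 0.10 and the protease inhibitor CST7 by 0.51 ± 0.15, each in 6 of 7 libraries. CST7 was not called without library 2, 5, 11 or 12 (edgeR adjusted p = 0.076 to 0.58).

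Granzymes varied far more between libraries than between the classes. GZMA was at 0, 4239 and 43560 CPM in KIR2DL4 T cells, against 166, 1385 and 19740 CPM in other T cells, and GZMB at 2337, 6300 and 35285 CPM against 315, 3021 and 20261 CPM. The differences were 2.08 ± 0.12 for GZMA and 1.42 ± 0.10 for GZMB, each in 6 of 7 libraries, and neither was called by the robust estimate (adjusted p = 0.58 and 0.55). Library 13 had no GZMA UMI in KIR2DL4 T cells, and library 5 had the highest levels of both genes in both classes. PRF1, the pore-forming perforin, was at 0, 29.8 and 517 CPM against 10.6, 55.0 and 252 CPM, a difference of 0.45 ± 0.22 that missed the threshold (edgeR adjusted p = 0.44). HOPX, a factor of differentiated cytotoxic cells, was at 0.97 ± 0.12 in 6 of 7 libraries and not called by the robust estimate (adjusted p = 0.20).

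Of 7 chemokine genes, 3 were higher and 1 lower. CCL5, which draws T cells and NK cells, was at 2615, 4916 and 8166 CPM in KIR2DL4 T cells, against 656, 983 and 3530 CPM in other T cells. It was higher in 7 of 7 libraries, by 1.85 ± 0.09 (edgeR adjusted p = 3.9e-70, but 0.10 with the robust estimate). XCL1, which attracts cross-presenting dendritic cells, was at 24.6, 165 and 681 CPM against 9.61, 32.2 and 126 CPM, with a difference of 2.78 ± 0.20 in 6 of 7 libraries (0.13 with the robust estimate). CCL3 rose by 0.83 ± 0.16 in 5 of 7 libraries and CCL20, the ligand of CCR6, fell by 2.12 ± 0.27 on the log2 scale in 6 of 7, and neither was called by the robust estimate (adjusted p = 0.66 and 0.67). CCL3 was also not called without library 5 (edgeR adjusted p = 0.057).

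Cytokine genes were lower or did not pass the test in KIR2DL4 T cells. Of 14 cytokine genes none was higher and 5 were lower (TNF, IL22, IL21, IL10 and LTB), with a list median of -1.81, or -1.32 with members without UMIs at their bound. CD40LG, the ligand by which helper T cells activate B cells, had 1 UMI in KIR2DL4 T cells of 7 libraries (8.49 CPM in library 11 and 0 in the others), against 10.8, 18.9 and 98.6 CPM at the lowest, median and highest in other T cells. The classes did not overlap, and its pooled level was 30.5-fold lower (counting interval 5.47 to 1207; edgeR adjusted p = 3.9e-07).

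IL21, made by follicular helper T cells, had 3 UMIs and was 11-fold lower (3.75 to 53.4; edgeR adjusted p = 6.6e-07). IL22, a cytokine that acts on gut epithelium, had 2 UMIs and was 13.8-fold lower (3.81 to 114; edgeR adjusted p = 0.00011). TNF had no UMI in KIR2DL4 T cells and was at 0.442 to 36.4 CPM in other T cells, which makes it at least 3.82-fold lower against a floor of 3 counts over the group (edgeR adjusted p = 0.012, 0.23 without library 11). IL21, IL22, TNF and IL10 were lower in 7 of 7 libraries and LTB in 6. A library without a UMI in KIR2DL4 T cells counts as lower wherever other T cells held any. The count of libraries therefore says little for genes with few UMIs in KIR2DL4 T cells, such as TNF, IL22 and IL21. IL10 fell by 2.42 ± 0.51 on the log2 scale, and LTB by 1.32 ± 0.16, though LTB was not called by the robust estimate (adjusted p = 0.51). IFNG, the cytokine of type 1 responses, was at 0, 115 and 297 CPM against 22.4, 150 and 196 CPM and did not pass the test (-0.19 ± 0.20, edgeR adjusted p = 0.80).

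Further genes lower in every library and named by the size of their change had few UMIs. For them, too, the count of libraries says little. SHE, an adaptor protein, had 1 UMI and was 14-fold lower (2.51 to 556), CD200, an inhibitory surface ligand, had 2 UMIs and was 6.64-fold lower (1.83 to 55.0), and GIPC2 had 3 UMIs and was 7.89-fold lower (2.69 to 38.3). OLFM4, known from gut epithelial stem cells, fell by 3.08 ± 0.52 on the log2 scale (edgeR adjusted p = 1.3e-06) on 5 UMIs, and APOD by 2.58 ± 0.58 (edgeR adjusted p = 0.0011) on 4. MS4A6A, a gene of myeloid cells, had no UMI in KIR2DL4 T cells and was at least 2.76-fold lower. In other T cells it was at 40.1 CPM in library 1 and 0.513 to 5.75 CPM in the other libraries, where myeloid markers as a whole ranged from 0 to 4423 CPM, and MS4A6A was not called without library 1 (edgeR adjusted p = 0.60) or without cells with 5 or more myeloid UMIs (0.75). Calls were also lost for SHE without library 1 or 11 (edgeR adjusted p = 0.054 and 0.36), for CD200 without library 1, 2 or 11 (0.074 to 0.099), for GIPC2 without library 11 (0.092) and for APOD without library 5 or 11 (0.055 and 0.057).

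T cell receptor genes and coreceptors went with the coreceptor counts above. Of 9 members, CD8A was higher, at 204, 263 and 397 CPM in KIR2DL4 T cells against 76.3, 167 and 307 CPM in other T cells (0.62 ± 0.15, in 6 of 7 libraries, edgeR adjusted p = 0.0050). CD4 fell by 1.36 ± 0.29, the costimulatory receptor CD28 by 1.34 ± 0.27, CD6 by 1.36 ± 0.28 and the adhesion receptor CD2 by 0.59 ± 0.15 on the log2 scale, each lower in 7 of 7 libraries. CD8A was not called without library 1, 5 or 11 (edgeR adjusted p = 0.055 to 0.12), nor CD2 without library 11 or 12 (0.21 and 0.12). TRAC did not pass the test, at 265, 798 and 2959 CPM against 439, 852 and 2811 CPM (-0.10 ± 0.10, edgeR adjusted p = 1).

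Genes of tissue residency and of circulation were described from 2 lists. Of 17 residency genes 5 were higher and none lower, with a median of 0.59: CRTAM, XCL1, the ectonucleotidase ENTPD1 (0.97 ± 0.20, in 7 of 7 libraries), NR4A3 (1.12 ± 0.27, in 5 of 7) and RGS2 (in 7 of 7). RGS2, a brake on G protein signals, was at 138, 247 and 1188 CPM in KIR2DL4 T cells, against 77.4, 128 and 262 CPM in other T cells (1.23 ± 0.15, edgeR adjusted p = 1e-12). NR4A3 was not called without library 8 (edgeR adjusted p = 0.17) or 12 (0.11). The 2 genes best known for residency missed the threshold. ITGAE, which encodes the integrin CD103, was at 111, 181 and 219 CPM against 89.0, 124 and 186 CPM (0.44 ± 0.17, edgeR adjusted p = 0.25), and CD69 at 603, 2882 and 4278 CPM against 984, 3121 and 5505 CPM (-0.24 ± 0.08, edgeR adjusted p = 0.11).

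Of 11 circulation genes none was higher and 2 were lower, with a median of -0.35. CCR7 was at 0, 8.49 and 88.3 CPM in KIR2DL4 T cells, against 91.1, 131 and 192 CPM in other T cells, with no overlap (-2.21 ± 0.27, edgeR adjusted p = 1e-12).

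Of 12 genes listed as inhibitory receptors 5 were higher and 1 lower, although TNFRSF9 and ENTPD1 among them are known for other roles. HAVCR2, which encodes TIM-3, rose by 2.86 ± 0.72 on 8 UMIs in 4 of 7 libraries, and TNFRSF9, the costimulatory receptor 4-1BB, by 2.08 ± 0.38 in 6 of 7 libraries, beside CD160, TIGIT and ENTPD1. CTLA4 was lower by 0.81 ± 0.20 on the log2 scale and was not called by the robust estimate (adjusted p = 0.45) nor without library 1, 2, 8, 11, 12 or 13 (0.052 to 0.53 by edgeR). HAVCR2 was not called without library 5 (edgeR adjusted p = 0.38), nor TNFRSF9 without library 11 (0.054). PDCD1, which encodes PD-1, missed the threshold (-0.54 ± 0.36, edgeR adjusted p = 0.67). Of 14 cytokine receptor chains, IL7R and IL2RA were lower. IL7R, the receptor of the survival cytokine IL-7, was at 6.15, 471 and 757 CPM against 62.3, 1181 and 1885 CPM, lower in 7 of 7 libraries (-1.23 ± 0.13), but was not called by the robust estimate (adjusted p = 0.33), and IL2RA fell by 0.94 ± 0.17 on the log2 scale in 7 of 7.

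Of 22 transcription factors 1 was higher and 1 lower. IKZF2, which encodes Helios, was at 0, 47.8 and 76.4 CPM in KIR2DL4 T cells, against 4.95, 11.2 and 26.7 CPM in other T cells (1.72 ± 0.34, in 6 of 7 libraries, edgeR adjusted p = 8.3e-05), and RORA fell by 0.80 ± 0.22 on the log2 scale in 7 of 7. EOMES and TBX21, the main factors of cytotoxic lymphocytes, had 3 and 0 UMIs and were too low to compare. All 18 cell division genes had a log2 fold change above 0, with a median of 0.88, and 2 passed the test. TYMS (1.44 ± 0.37) was called higher in 5 of 7 libraries, and STMN1 in 3 of 7 and not by the robust estimate (adjusted p = 0.73). MKI67 was found in 8.97% of KIR2DL4 T cells and 4.25% of other T cells (thinned 3.85% and 2.14%) and missed the threshold (0.49 ± 0.30, edgeR adjusted p = 0.64). MHC class II had CD74 and 1 of the 2 entries named Mamu-DPA1 higher of 6, each in 5 of 7 libraries. The other Mamu-DPA1 entry was not called. The interferon list had IFIT2 of 16 higher, in 3 of 7 libraries, and CD74 and IFIT2 were not called by the robust estimate (adjusted p = 0.73 and 0.69). Calls were lost for RORA without library 11 or 12 (edgeR adjusted p = 0.14 for both), TYMS without library 1 or 2 (0.064 and 0.33), STMN1 without library 2 or 5 (0.62 and 0.71) and Mamu-DPA1 without library 11 or 12 (0.054 and 0.50). CD74 was not called without library 1, 11, 12 or 13 (edgeR adjusted p = 0.14 to 0.54), and without library 12 IFIT2 changed direction (-0.52).

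**Figure D4:**
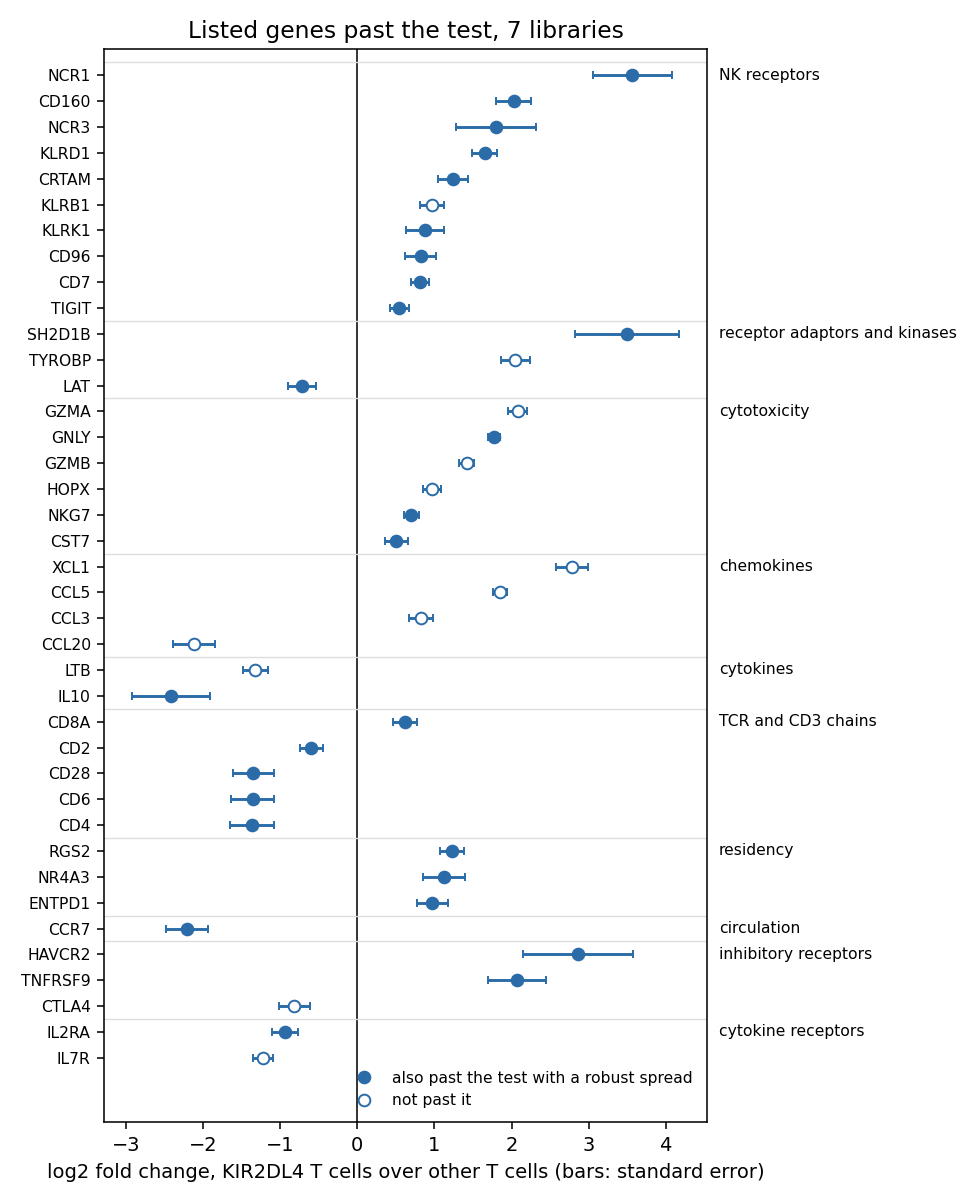
Log2 fold change of KIR2DL4 T cells over other T cells with its standard error for 39 genes of 10 lists that passed edgeR's test and had more than 3 UMIs in KIR2DL4 T cells, a gene in several lists shown once. Filled points (27) also passed with a robust estimate of the spread and open points (12) did not. All NK receptors lie right of 0, and CCR7 lies left of it.

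Because KIR2DL4 T cells more often had CD8A, both classes were also limited to cells with a CD8A UMI, an alternative added after the data were seen. It gave 54 higher and 33 lower calls, of which 51 and 26 were also called without the limit. LAT2 (2.38), KLRD1 (0.91), GNLY (0.88), TYROBP (1.94), XCL1 (1.96) and GZMA (1.22) were called higher and CCR7 (-2.10) and IL22 (fitted -3.44) lower there. CD40LG, IL21, CD28, NKG7, CRTAM and NCR1 were not called in CD8A cells (adjusted p = 0.65, 0.80, 0.15, 0.86, 0.16 and 0.28 by edgeR). KLRK1, at -0.13, and APOD, at 0.28, changed direction.

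Members with 2 or more KIR2DL4 UMIs and members with 1 were compared in libraries 1, 2 and 5, which had at least 10 T cells of each, as a description. KLRD1 was at 521, 847 and 345 CPM in libraries 1, 2 and 5 in cells with 2 or more UMIs and at 437, 351 and 275 CPM in cells with 1, against 74.0, 129 and 263 CPM in other T cells. GNLY was at 4605, 12137 and 8430 CPM and at 4514, 8604 and 7053 CPM, against 998, 2716 and 4541 CPM. Cells with a single UMI lay above the other T cells of their library for both genes, which gave the cells their label, by little for KLRD1 in library 5. For other genes some values went the other way, as single-UMI cells had 22.9 CPM of XCL1 in library 5, against 38.5 CPM in other T cells, and no KLRB1 there, against 147 CPM. They had no CD160 UMI in libraries 2 and 5, against 5.81 and 14.1 CPM. GZMA had no such order, with 563, 11916 and 40180 CPM in cells with 2 or more UMIs and 1505, 6848 and 52758 CPM in cells with 1.

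KIR2DL4 CD3-low cells had 6 of 16 NK receptors, 5 of 14 killing genes, 3 of 6 chemokines and 2 of 11 receptor adaptors and kinases higher than other T cells. NCR1, TYROBP, LAT2, FCGR3, LYN and FES were higher in all 4 libraries compared, together with the chemokines CCL5 and XCL1, while CTLA4, TNFRSF4, CCL20 and CD28 were lower in all 4. Only libraries 1, 2, 8 and 9 had 5 or more such cells, 26 cells in all with 18560 to 30406 UMIs per library, against 5518 other T cells. Of 10631 genes, 89 were higher (0.837%) and 18 lower (0.169%), 1.01% in all, by edgeR's quasi-likelihood test with Benjamini-Hochberg adjustment. Of these, 46 and 15 went one way in every library, and 33 and 12 did not overlap between the classes. Neither share was counted over all 10631 genes, so these counts, too, have no background. Scaling factors from all genes gave 58 higher and 423 lower calls with the median of all genes at -1.19, against -0.27 in the reported fit.

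Because a gene without a UMI in 26 cells can still lie at 32.8 CPM (3 counts over the group), lower genes could be seen only where other T cells held much of them. These cells are compared with the same other T cells as the KIR2DL4 T cells in the 3 libraries 1, 2 and 8, so the 2 comparisons are not independent. Without library 8, 43 genes were higher and 17 lower.

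TYROBP was at 3877, 2246, 2204 and 1131 CPM in CD3-low members of libraries 1, 2, 8 and 9, against 178, 37.4, 67.2 and 27.0 CPM in other T cells. Every library of members lay above every library of other T cells, and the difference was 5.24 ± 0.26 (log2 fold change ± SE, edgeR adjusted p = 3.7e-89). NCR1 was at 101, 264, 65.8 and 53.9 CPM against 0.853, 1.34, 1.18 and 0.819 CPM in the same libraries, a difference of 6.90 ± 0.89 (edgeR adjusted p = 6.1e-12) that rests on 11 UMIs. By cells, TYROBP was found in 30 and NCR1 in 12 of 34 CD3-low members.

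LAT2 was at 504, 528, 460 and 377 CPM in CD3-low members, against 18.4, 19.2, 18.9 and 13.4 CPM in other T cells (4.82 ± 0.46, edgeR adjusted p = 2.6e-22). It was the most even of these genes among the 4 libraries of members. FCGR3 was at 101, 44.0, 98.7 and 53.9 CPM against 17.7, 3.46, 0.589 and 0.546 CPM (3.92 ± 0.92, edgeR adjusted p = 0.0025). FCER1G, the Fc receptor gamma chain through which human KIR2DL4 signals, rose by 4.39 ± 1.03 (edgeR adjusted p = 0.0027) on 6 UMIs, at 151, 88.1, 32.9 and 0 CPM. FCGR3 was not called without library 2, 8 or 9 (edgeR adjusted p = 0.065, 0.90 and 0.081), nor FCER1G without library 2 or 8 (0.51 and 0.15).

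The other genes with the largest rises had few UMIs each. MAPK12, a stress-activated kinase, rose by 5.52 ± 1.15 on 5 UMIs, and the kinases FES and LYN by 4.55 ± 0.74 and 3.8 ± 0.77 on 12 and 10 UMIs. MFGE8, a secreted protein that bridges dying cells to phagocytes, rose by 5.21 ± 0.68 on 16 UMIs, and the transporter ABCB4 by 3.86 ± 0.64 on 15. All of them were higher in 4 of 4 libraries with no overlap between the classes. MAPK12 and LYN were not called without library 8 (edgeR adjusted p = 0.13 and 0.45), nor FES without library 2 (0.063).

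Of 16 NK receptors tested in CD3-low cells, 6 were higher and none lower, with a median of 1.43 (1.89 with members without UMIs at their bound). Beside NCR1 these were CD160 (3.40 ± 0.58), KLRD1 (2.98 ± 0.40), CRTAM (2.62 ± 0.49), KLRB1 (1.89 ± 0.31) and CD7 (1.21 ± 0.24), each in 4 of 4 libraries. NCAM1 had 1 UMI in these 4 libraries. Of the killing genes 5 of 14 were higher, with GNLY at 15811, 18848, 1776 and 4418 CPM against 998, 2716, 278 and 179 CPM (3.58 ± 0.16, edgeR adjusted p = 2.3e-111). KLRD1 and GNLY gave the cells their label and are no independent finding here either. NKG7 rose by 1.59 ± 0.24 and HOPX by 1.91 ± 0.27. GZMB, at 2.20 ± 0.17, and GZMA, at 2.01 ± 0.27, were not called by the robust estimate (adjusted p = 0.87 for both), and GZMA was higher in 2 libraries and lower in 2 and not called without library 8 (0.90 by edgeR). CD160 was not called without library 9 (edgeR adjusted p = 0.49).

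CCL5 was at 6495, 7398, 8123 and 5442 CPM in CD3-low members, against 656, 983, 698 and 450 CPM in other T cells (3.41 ± 0.17, edgeR adjusted p = 1.6e-89). XCL1 was at 252, 132, 526 and 485 CPM against 25.6, 9.61, 14.1 and 15.3 CPM (4.51 ± 0.48, edgeR adjusted p = 3.6e-18). Both chemokines were higher in every library without overlap. CCL3 rose by 1.71 ± 0.41 and had no UMI in the members of library 9. Of 21 transcription factors ZBTB16 (4.47 ± 0.88), known from innate-like T cells and innate lymphoid precursors, IRF8 (2.87 ± 0.60) and NFIL3 (2.18 ± 0.59), which NK cell development needs in mice, were higher, in 3, 2 and 3 of 4 libraries and at 0 in the members of the others. Residency genes were higher in 5 of 17 cases, among them RGS2 at 2.39 ± 0.39, which was at 151, 0, 2072 and 539 CPM against 77.4, 104, 147 and 88.7 CPM. Without library 8 none of RGS2, CCL3, IRF8 and NFIL3 (edgeR adjusted p = 0.90 each) and ZBTB16 (0.13) was called. Calls were also lost without library 2 for CCL3 (0.25), IRF8 (0.086) and NFIL3 (0.074), without library 9 for NFIL3 (0.23) and without library 1 for ZBTB16 (0.20), all by edgeR.

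Among genes lower in CD3-low cells, CCL20, CTLA4, TNFRSF4 (the costimulatory receptor OX40) and the protease CTSL had no UMI in any of the 4 libraries. Against the floor of 3 counts over the group they were at least 8.74-fold, 8.21-fold, 7.43-fold and 6.91-fold lower. CD28 had 1 UMI and was 14.2-fold lower (2.54 to 560), the mitochondrial gene NDUFV2 had 2 UMIs and was 11.5-fold lower (3.19 to 95.3), and MAGEH1 had 3 UMIs and was 5.73-fold lower (1.96 to 27.8). SPOCK2, a proteoglycan gene, fell by 3.39 ± 0.54, COA1, a mitochondrial assembly factor, by 3.36 ± 0.54 and the chromatin gene ARID5B by 2.74 ± 0.60 on the log2 scale, each on 4 UMIs. CD28 was not called without library 2, 8 or 9 (edgeR adjusted p = 0.14 to 0.35), MAGEH1 without library 8 or 9 (0.052 and 0.91), ARID5B without library 8 (0.081) and CTSL without library 2 (0.052).

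TRAC was at 604, 132, 197 and 539 CPM in CD3-low members, against 1317, 1448, 439 and 608 CPM in other T cells, lower in 4 of 4 libraries (-1.29 ± 0.30, edgeR adjusted p = 0.0018). TRAC RNA was thus reduced but present in every library, and the rule did not use it. IL7R fell by 1.46 ± 0.33 on the log2 scale (edgeR adjusted p = 0.0011), also in 4 of 4. Without library 2 TRAC was not called (edgeR adjusted p = 0.59), nor IL7R without library 8 (0.14).

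Genes shared with myeloid, B or epithelial cells were uneven between the libraries. CST3 was at 0, 0, 1381 and 0 CPM in CD3-low members of libraries 1, 2, 8 and 9, and the myeloid-marked cell described above lies in library 8. CD74 was at 806, 1673, 2796 and 108 CPM against 463, 310, 104 and 166 CPM (2.38 ± 0.29), and MAMU-DRB1 at 0, 528, 888 and 53.9 CPM against 142, 50.6, 77.2 and 143 CPM (2.09 ± 0.42), and neither was called by the robust estimate (adjusted p = 0.87 for both). Without cells with 5 or more myeloid UMIs 83 genes were higher and 17 lower, and neither MAMU-DRB1 (edgeR adjusted p = 0.21) nor IRF8 (0.10) was called. MAMU-DRB1 was also not called without library 2 (0.26) or 8 (0.90). OLFM4 was called higher (3.31 ± 0.66, edgeR adjusted p = 9.4e-05), but all its 40 UMIs came from 1 cell of library 9, and the other 3 libraries had none.

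KIR2DL4 CD3-low cells and KIR2DL4 T cells were also compared with each other in libraries 1, 2, 8 and 9, with 26 and 112 cells. Of 3123 genes, 19 were higher (0.608%) and 1 lower (0.032%), 0.64% in all, by edgeR's quasi-likelihood test with Benjamini-Hochberg adjustment, 10 and 0 of them one way in every library and 4 and 0 without overlap. At an unadjusted p under 0.05 the counts were 89 and 56, and DESeq2 called 3 genes higher and none lower. Without library 8 the counts were 12 and 4, without library 9 12 and 2, and without library 1 3 genes were lower. The share of all 3123 genes that went one way or did not overlap was not counted. The small number of cells and of genes tested limits this comparison.

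TYROBP was the clearest difference, at 3877, 2246, 2204 and 1131 CPM in CD3-low members, against 493, 437, 412 and 697 CPM in KIR2DL4 T cells of libraries 1, 2, 8 and 9. The groups did not overlap, and TYROBP rose by 2.31 ± 0.23 (edgeR adjusted p = 6.9e-21). LAT2 was at 504, 528, 460 and 377 CPM against 170, 190, 177 and 262 CPM (1.36 ± 0.37, edgeR adjusted p = 0.035), again without overlap. The tetraspanin CD63 was at 755, 617, 592 and 1131 CPM against 341, 357, 236 and 349 CPM (1.26 ± 0.32, edgeR adjusted p = 0.011). GPR65, a proton-sensing receptor of lymphocytes (1.37 ± 0.25), the splicing-related cyclin CCNL1 (1.03 ± 0.27) and S100A4 (0.96 ± 0.18) were higher in 4 of 4 libraries. TYROBP and GPR65 kept their calls with any library left out. LAT2 was not called without library 1, 2 or 8 (edgeR adjusted p = 0.25 to 0.28), CD63 without library 1, 8 or 9 (0.12 to 0.33), CCNL1 without any of the 4 (0.094 to 0.34) and S100A4 without library 9 (0.22).

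Killing genes and chemokines were called in 2 of 13 and 1 of 5 cases, all higher in CD3-low cells. CCL5 was higher by 0.79 ± 0.13 in 3 of 4 libraries, GZMB by 0.58 ± 0.14, and GNLY by 0.89 ± 0.13, GNLY not by the robust estimate (adjusted p = 1). CTLA4 was the gene lower in CD3-low cells, with no UMI there and 49.7, 311, 0 and 174 CPM in KIR2DL4 T cells of libraries 1, 2, 8 and 9, at least 4.31-fold lower (edgeR adjusted p = 0.026). GZMB and CTLA4 were not called without library 2 (edgeR adjusted p = 1 and 0.87) or library 9 (0.096 and 0.15). None of 9 NK receptors tested passed, and CD74 (1.90) and MAMU-DRB1 (2.09) of 4 MHC class II genes were called higher, but not without library 8 (edgeR adjusted p = 0.29 and 1) nor without cells with 5 or more myeloid UMIs (0.20 and 0.82). MAMU-DRB1 was also not called without library 2 (edgeR adjusted p = 0.42), nor CD74 by the robust estimate (adjusted p = 1). TRAC missed the threshold (-1.08 ± 0.32, edgeR adjusted p = 0.092), as did NCR1 (2.63 ± 0.90, edgeR adjusted p = 0.25), although all 4 libraries of CD3-low cells lay above those of KIR2DL4 T cells for NCR1.

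**Figure D5:**
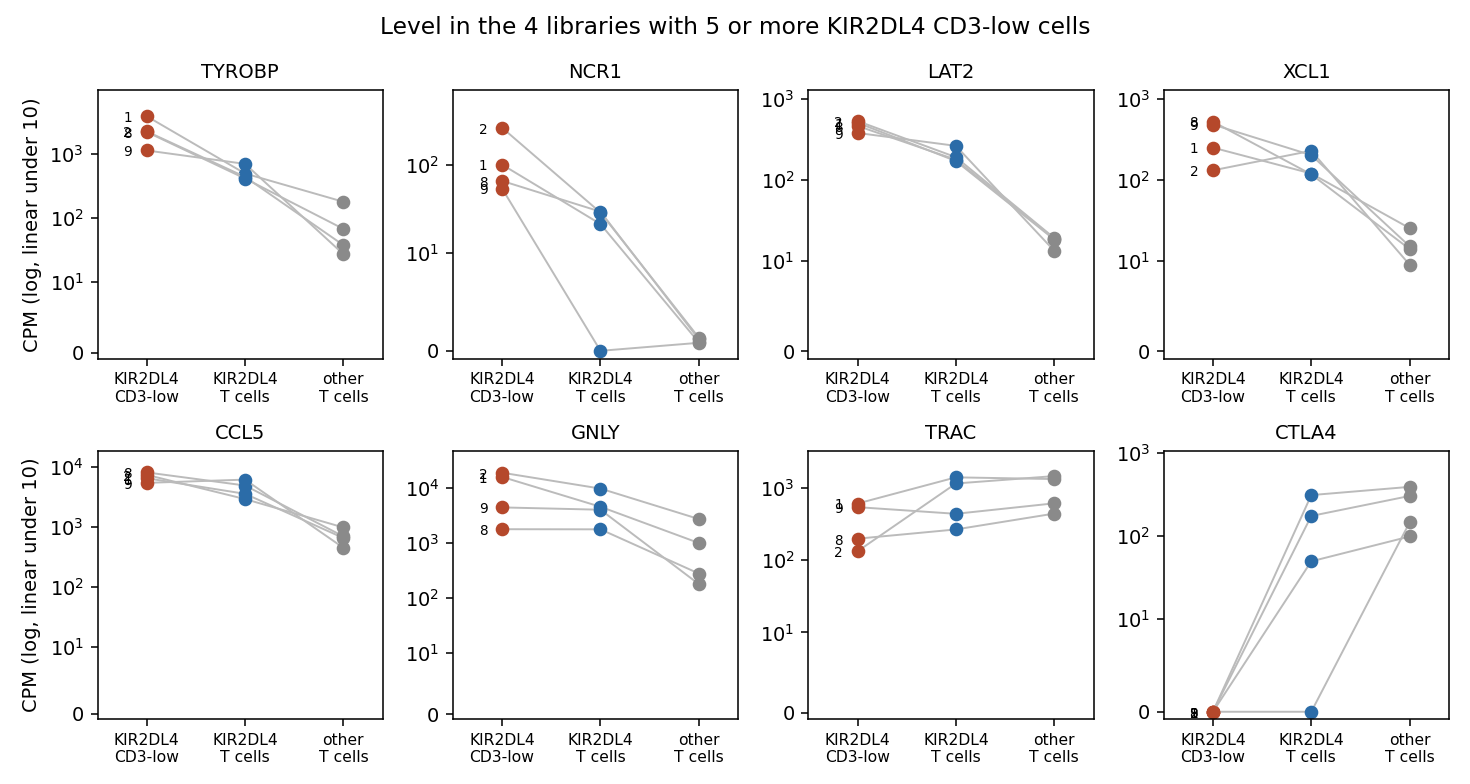
Level in CPM (log axis, linear under 10) of 8 genes in KIR2DL4 CD3-low cells (left, red), KIR2DL4 T cells (middle, blue) and other T cells (right, grey) of libraries 1, 2, 8 and 9, 1 line per library with its number at the left point. TYROBP and LAT2 step down from left to right in every library, TYROBP being at 1131 to 3877, 412 to 697 and 27.0 to 178 CPM, while CTLA4 is at 0 in all CD3-low cells.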

How the data were processed

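Single-cell RNA of sorted colon leukocytes was analysed from the raw counts of UMIs per gene and barcode that the authors deposited for 34628 features and 57086 barcodes. Per the submitters' processing notes, Cell Ranger 3.1.0 and Seurat 3.1 were used, and no genome build is named there. The authors also deposited a matrix of natural log values of 1 plus a corrected count. Its values were not used for any result, but its list of 20606 kept cells was taken over. Each kept cell had at least 1502 UMIs (median 3412), and 39 kept cells of library 4 were left out, which leaves 20567. No doublet caller was run.

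The members and gene lists were chosen with earlier results of these data known. UMIs were summed per library and class (Python 3.11.15, numpy 2.4.6, pandas 2.3.3, scipy 1.17.1) and tested with edgeR 4.0.16 in R 4.3.3 (quasi-likelihood test, library as a block, genes with at least 20 UMIs in the fit, adjusted p under 0.05), with DESeq2 1.42.0 as an alternative. Named genes are the 10 with a symbol and the largest rise and the 10 with the largest fall among those called and changed one way in every library, without immunoglobulin genes, and members of the lists. Some genes that this rule names are not reported here. List names were matched to symbols, and for example 19 of 23 NK receptor names and 12 of 16 T cell receptor names were found.

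The plan asked for at least 10 cells of both classes in a library. No library had 10 CD3-low cells, so a minimum of 5, also listed in the plan, was used there. The fit was run in 3 versions, and the choice was made after calls had been seen. TMM scaling factors from all genes, the plain reading of the plan, shifted unchanged genes in simulated data, so the reported fit takes them from genes with at least 10 UMIs expected in the smallest sum. A robust spread was tried because the default gives nearly all genes 1 common spread and very small p-values. It was not better in every comparison of simulated data and is an alternative. In simulated data whose genes differ in spread, false calls were well above the nominal level in the reported fit, so the number of libraries that share a direction is given with the counts of calls and most named genes.

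Pairing comes from the library: each library holds both classes, and the replicate numbers of the labels play no part. A gene without UMIs in 1 class was set to a floor of 3 counts over the group, and ratios on 1 to 3 UMIs have exact 95% intervals, which cover counting error only.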

Additional observations from a re-analysis of the deposited data

Results flagged for a closer look

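Among barcodes that the authors did not keep, 42 of 31090 met the KIR2DL4 rule, 0.135% (exact interval 0.0974 to 0.183). Their median depth was 1498 UMIs. Of these 42 barcodes, 26 also had at least 3 CD3 UMIs. The same rule was met by 1.30% of kept cells (1.15 to 1.47), and kept cells had a median of 3412 UMIs. The B cell background is a share within B cells alone, so it is no counterpart of the share of barcodes that were not kept.

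In 16 of 88 groups of libraries, 1 library lay far from the others by Dixon's test. The nominal rate of about 1 in 20 does not hold for genes with UMIs in a single library, which the test always flags. The number of flags can therefore not be set against chance. In KIR2DL4 T cells of 7 libraries, RGS2 was at 1188 CPM in library 11 and 138 to 455 CPM in the others. Genes with few UMIs were at 0 CPM in most libraries, with CD40LG at 8.49 CPM in library 11, IL22 at 7.10 CPM in library 1, SHE at 5.97 CPM in library 12, IL21 at 11.5 CPM in library 2, OLFM4 at 17.7 CPM in library 1, CD200 at 12.3 CPM in library 5, GIPC2 at 10.6 CPM in library 1 and APOD at 14.2 CPM in library 1. In other T cells of 7 libraries, MS4A6A was at 40.1 CPM in library 1 and IL22 at 72.1 CPM in library 12 (1.77 to 30.4 CPM in the others).

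In the 4 libraries with CD3-low cells, CD28 was at 50.4 CPM in CD3-low members of library 1 and at 0 in the others. KIR2DL4 T cells of library 8 had CD63 at 236 CPM (341 to 357 CPM in the others) and S100A4 at 2296 CPM (1424 to 1518 CPM in the others). Other T cells had LAT2 at 13.4 CPM in library 9 (18.4 to 19.2 CPM in the others) and FCGR3 at 17.7 CPM in library 1 (0.546 to 3.46 CPM in the others).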

How the results depend on the processing

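The direction of most named genes held under the alternatives, while counts of calls moved. For KIR2DL4 T cells against other T cells, against 140 higher and 92 lower genes, DESeq2 gave 67 and 35, cells with CD8A 54 and 33, cells with CD8A and no CD4 52 and 56, members with at least 2 KIR2DL4 UMIs 48 and 29, cells thinned to 1500 UMIs 20 and 9, and scaling factors from all genes 88 and 379. The expression filter of edgeR gave 72 higher and the first barcode set alone 59. Leaving out 1 library at a time gave 93 (library 11) to 157 higher and 62 to 121 lower. For CD3-low cells against other T cells, against 89 and 18, scaling factors from all genes gave 58 and 423, DESeq2 9 lower, thinned cells 43 higher, the first barcode set 20 higher, and leaving out 1 library 43 (library 8) to 79 higher and 15 to 19 lower. For CD3-low cells against KIR2DL4 T cells, against 19 and 1, DESeq2 gave 3 and 0, the expression filter 2 and 0, a filter of 1 UMI 0 lower, the first barcode set 10 and 5, the second 0 lower, thinned cells 9 and 2, scaling factors from all genes 5 lower, and leaving out 1 library 12 to 18 higher and 1 to 4 lower. Without the replicate block, that is with library left out of the fit, the 3 comparisons gave 2 and 0, 17 and 0, and 1 and 0 calls. At an unadjusted p under 0.05 the reported fits had 676 higher and 506 lower, 392 and 147, and 89 and 56 genes. The share of KIR2DL4 cells, 1.30%, was 0.686% in thinned cells, 0.370% with at least 2 KIR2DL4 UMIs, 0.653% over all barcodes with at least 500 UMIs, 0.773% with no B or plasma cell UMI allowed, and 1.10% (without library 1) to 1.44% with 1 library left out. The cause of these changes was not tested, apart from the fewer cells and genes that thinning and stricter filters leave.

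Several log2 fold changes of KIR2DL4 T cells changed sign. In cells with CD8A they were APOD 0.28, KLRK1 -0.13 and CD8A -0.26 (where CD8A itself chose the cells, so its value is no check), and with CD4 also excluded APOD 1.31, CD74 -0.078, IFIT2 -0.23, KLRK1 -0.16, CCL20 0.44, CD8A -0.21 and CCL3 -0.48. With at least 2 KIR2DL4 UMIs they were IFIT2 -0.28, KLRB1 -0.15, CCL20 0.39, NR4A3 -0.37 and Mamu-DPA1 -0.39. With 1 library left out IFIT2 ranged between -0.52 (library 12 left out) and 2.24. Within the first set of barcodes CD74 was -0.0056, IFIT2 -0.80 and Mamu-DPA1 -0.16, in the second STMN1 was -0.73, and in thinned cells SHE was 0.46. For CD3-low cells, RGS2 was -0.36 against other T cells in the first set, and against KIR2DL4 T cells GZMB was -0.019 in the second set and CD74 -0.40 in thinned cells. The cause was not tested. A minimum of 20 cells, of 2 KIR2DL4 UMIs and of 1 CD3 UMI left too few libraries for either comparison of CD3-low cells to be fitted.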
